A study of Mus musculus with 12 samples.

Results

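Ribosome biogenesis factors are the nucleolar proteins and small nucleolar ribonucleoproteins (snoRNPs) that modify, cut and fold ribosomal RNA and fit ribosomal proteins onto it. A list of 45 such genes, taken by name, was followed through the response of mouse B cells to B cell receptor cross-linking, and 44 of them were measured among 18193 genes in all. Each gene was read from the probe set that had the highest mean over all arrays among those with a single gene symbol. Mrto4 was not measured, because its probe set carries several symbols. By role, 7 measured genes belong to snoRNPs, 16 to the early small-subunit precursor, 5 to late small-subunit maturation and 12 to the large subunit, and 4 code for abundant or regulatory nucleolar proteins.

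The series compared follicular B cells (B220+CD23hiCD21lo, above 98% pure) from spleens of C57Bl/6 mice aged 6 weeks, either wild type (WT) or IkL/L. IkL is a germline hypomorphic allele of Ikzf1, the gene of the transcription factor Ikaros, so that other blood cells of IkL/L mice carry it as well. In both genotypes, cells were left for 3 h in medium alone, or were given goat F(ab')2 anti-IgM at 10 µg/ml for 3 h or 12 h. There was no unstimulated group at 12 h, so time in culture and time with anti-IgM cannot be told apart in the 12 h comparisons. Each of the 6 groups held 2 arrays (n = 2 throughout) from 2 independent experiments. The labels do not say how many mice an array represents, so that a p-value here reflects only how far these samples scatter.

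Ribosomes are assembled from a long precursor transcript made by RNA polymerase I in the nucleolus. SnoRNPs guide its chemical modification, the small-subunit processome folds and cleaves its first part, and separate sets of factors mature the large subunit and carry the small subunit towards export. Resting lymphocytes make few ribosomes, and antigen receptor signals that drive growth raise this activity, in part through Myc, a transcription factor known to act on many of these genes.

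Signals are on the log2 scale, and a gene is called changed where limma's moderated test over all 18193 genes gave a Benjamini-Hochberg adjusted p below 0.05. The SE printed with a log2 difference is the moderated one. Array medians lay between 3.12 and 3.21, and a signal floor of 4.21 was set 1 above the highest of them after the values had been seen. Among the 44 genes, Nol10 was the 1 gene with an array under that floor, and folds against such a group are given as "at least". Each array was made from the same amount of total RNA (100 ng), so that a signal is relative to the RNA of the sample. In such bulk samples, fewer cells of a type and less RNA per cell cannot be told apart.

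Some libraries stood apart from others of their genotype. Xist, which is transcribed from the inactive X chromosome of female cells, read 10.69, 10.21 and 10.01 on the 3 WT replicate 1 arrays and between 3.19 and 3.48 on the other 9. Eif2s3y, a Y-linked gene, read between 2.41 and 2.83 on those 3 arrays and at least 8.30 on the other 9. Unstimulated IkL/L replicate 2 was above replicate 1 for the members, with only 6 of 44 higher in replicate 1 and a mean difference (replicate 1 minus replicate 2) of -0.30. Some results that rest on these arrays are given below with and without them, and others only with them.

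Most of the 44 genes rose within 3 h of anti-IgM in both genotypes, and most were still raised at 12 h. In WT cells 43 of 44 rose at 3 h, where 9.15% of all genes rose, and 39 of 44 rose at 12 h, where 10.1% of all genes did. In IkL/L cells 41 of 44 rose at 3 h (9.82% of all genes) and 37 of 44 at 12 h (9.72% of all genes). No member fell in any of these 4 comparisons. The median log2 difference over the 44 genes was 1.44 in WT and 1.35 in IkL/L at 3 h, beside 0.02 and -0.03 over all genes. At 12 h it was 1.01 in WT and 0.80 in IkL/L, beside 0.05 and 0.02 over all genes.

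Set out by array, the median signal of the 44 genes was 7.81 and 7.88 in unstimulated WT cells, 9.60 and 9.38 at 3 h, and 8.96 and 8.91 at 12 h. In IkL/L cells it was 8.10 and 8.33 without stimulus, 9.63 and 9.82 at 3 h, and 8.98 and 9.23 at 12 h. In each genotype, both 3 h arrays were highest, both 12 h arrays lay between, and no array of one condition overlapped with those of another. Both arrays of the stimulated group were above both unstimulated arrays for 44 genes in WT at 3 h (29.8% of all genes), 43 in WT at 12 h (32.6%), 42 in IkL/L at 3 h (23.5%) and 41 in IkL/L at 12 h (27.7%). The rise was at least 1 on the log2 scale for 41 genes in WT at 3 h and 22 at 12 h, and for 37 and 14 genes in IkL/L. How many of all genes rose that far was not counted.

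**Figure D1:**
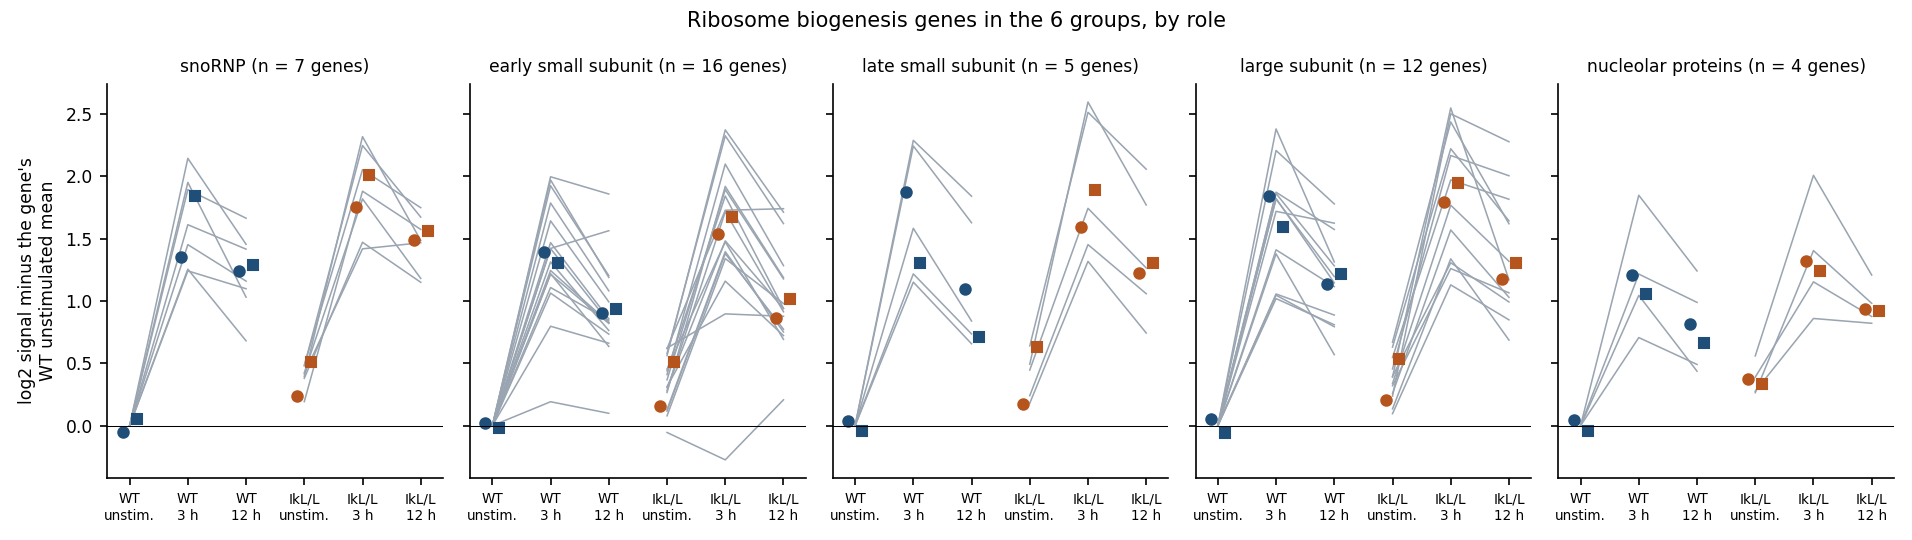
Log2 signal minus the gene's mean in unstimulated WT cells (y axis) in the 6 groups (x axis), in 5 panels by role; grey lines are single genes (group means), and circles (replicate 1) and squares (replicate 2) are the median over the panel's genes on each array, blue for WT and orange for IkL/L. In all 5 panels the medians are highest at 3 h and partly lower at 12 h, and those of unstimulated IkL/L cells lie above the WT ones.

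The sort and the culture can be read from marker genes. Fcer2a (CD23), which the sort used, read 9.46 and 9.83 in unstimulated WT cells and 9.39 and 9.76 in unstimulated IkL/L cells. It fell at 12 h by 1.81 on the log2 scale in WT and by 2.95 in IkL/L, and at 12 h it was lower in IkL/L than in WT (log2 difference -1.21, SE 0.22, adjusted p = 0.0439). B cell genes moved with the groups. Of 5 measured B cell markers (Ms4a1, Cd79a, Cd79b, Pax5 and Cd22), all 5 fell in WT at 3 h and at 12 h and in IkL/L at 3 h, and 3 fell in IkL/L at 12 h. Their summed signal on the log2 scale was 13.6 on both unstimulated WT arrays, 11.8 and 12.1 at 3 h and 12.4 on both arrays at 12 h. In IkL/L cells it lay between 13.0 and 13.3 without stimulus, between 10.8 and 11.1 at 3 h and between 11.8 and 12.4 at 12 h. Irf4, listed with the plasma cell markers and also induced in activated B cells, read 10.12 and 9.97 in unstimulated WT cells and 12.03 and 12.01 at 3 h. Of the 4 plasma cell markers, Irf4 and Prdm1 rose in WT at 3 h, Sdc1 fell (from 6.22 and 6.61 to 3.45 and 4.63) and Jchain was not called. All 6 T cell markers and both NK cell markers were under the floor on every array. Of 6 myeloid markers none was called in a comparison with unstimulated cells, and S100a8 was higher in replicate 2 than in replicate 1 in all 6 groups. The part of these markers in the members' rise was not tested.

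The snoRNP genes rose at both times. All 7 passed the test at both times in both genotypes, with log2 differences between 1.24 and 2.14 in WT at 3 h and between 0.68 and 1.66 at 12 h. With arrays left out, 6 or 7 rose in WT at 3 h, but 3 to 7 in WT and 4 to 7 in IkL/L at 12 h. Nolc1 codes for the snoRNP chaperone Nopp140. Its WT signals were 8.64 and 8.55 without stimulus, 10.83 and 10.64 at 3 h, and 10.16 and 9.94 at 12 h, and in IkL/L cells they were 8.61 and 9.37, then 10.78 and 11.05, then 10.08 and 10.08. All stimulated arrays were above all unstimulated ones, and the 2 unstimulated IkL/L arrays lay further apart than any other pair. Nolc1 rose 4.42-fold in WT at 3 h (log2 2.14, SE 0.21, adjusted p = 8.48e-05).

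Nhp2 and Dkc1 are subunits of the H/ACA snoRNPs, in which Dkc1 (dyskerin) converts uridine to pseudouridine. Nhp2 read 9.59 and 9.54, 11.47 and 11.44, and 11.30 and 11.16 on the unstimulated, 3 h and 12 h WT arrays, and 10.02 and 10.08, 11.58 and 11.66, and 11.39 and 11.23 on the IkL/L arrays. The replicates of Nhp2 were close in every group, and its rise in WT at 3 h was 3.71-fold (log2 1.89, SE 0.11, adjusted p = 7.17e-06). Dkc1 stood at 7.77 and 8.01 in unstimulated WT cells, 9.25 and 9.76 at 3 h and 9.35 and 9.26 at 12 h. Its IkL/L values were 8.09 and 8.08, 9.64 and 9.90, and 9.39 and 9.54. The 3 h and 12 h values of Dkc1 overlapped in WT, and all stimulated values were higher than all unstimulated ones. Gar1, another H/ACA subunit, gave log2 rises of 1.24 at 3 h and 1.10 at 12 h in WT, and 1.00 and 1.05 in IkL/L.

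Fbl, Nop56 and Nop58 form the C/D snoRNP core, in which Fbl (fibrillarin) methylates ribose. Fbl had the smallest change of the snoRNP genes over the 4 comparisons: 10.60 and 10.39 in unstimulated WT cells, 11.72 and 11.78 at 3 h and 11.35 and 11.00 at 12 h. IkL/L cells gave 10.64 and 11.11, 11.82 and 12.11, and 11.52 and 11.77 for Fbl. The stimulated arrays were again the higher ones in both genotypes, and the rise of Fbl in WT at 3 h was 2.39-fold (adjusted p = 0.001). Its call at 12 h was lost under 7 of 25 alternatives in WT and 6 of 25 in IkL/L, among them scaling to housekeeping genes (adjusted p = 0.0634 and 0.106). Nop58 read 7.50 and 7.82, 9.72 and 9.50, and 8.90 and 8.48 in WT, a rise of 3.87-fold at 3 h and 2.04-fold at 12 h. Nop58 on the IkL/L arrays read 8.11 and 8.16, 9.87 and 9.94, and 9.24 and 9.42. Both IkL/L arrays of Nop58 were above both WT arrays in each of the 3 conditions. Nop56 rose by log2 1.45 (SE 0.17) in WT and 1.39 (SE 0.17) in IkL/L at 3 h.

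Factors of the early small-subunit precursor gave the widest range of responses in WT and, at 3 h, in IkL/L, with Nol6 lowest each time. In IkL/L at 12 h their log2 differences ran from 0.24 to 1.15, and those of the large-subunit factors from 0.55 to 2.04. In WT 15 of 16 rose at 3 h and 13 at 12 h, and in IkL/L 14 and 11 rose. Noc4l is the partner of Nop14 in the processome. Its signals were 7.20 and 7.28, 9.19 and 9.27, and 8.96 and 9.23 in unstimulated, 3 h and 12 h WT cells. The IkL/L arrays gave 7.61 and 7.99, 9.40 and 9.82, and 8.83 and 9.07. In WT the 3 h and 12 h arrays of Noc4l overlapped, while in IkL/L both 12 h arrays were below both 3 h arrays. Noc4l rose 3.99-fold in WT at 3 h (log2 2.00, SE 0.18, adjusted p = 5.4e-05).

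Rrp9 binds the U3 snoRNA, the guide RNA of the processome. Rrp9 read 7.57 and 7.50, 9.72 and 9.29, and 8.91 and 8.53 in WT and 7.92 and 8.30, 9.76 and 9.96, and 8.91 and 9.39 in IkL/L. Tbl3 (the mammalian Utp13), a WD-repeat subunit of the UTP-B complex, read 7.21 and 6.81, 9.12 and 8.75, and 8.35 and 8.08 in WT and 7.27 and 7.58, 9.13 and 9.08, and 8.33 and 8.26 in IkL/L. For both genes every 12 h array lay between the unstimulated and the 3 h arrays of its genotype. Their WT rises at 3 h were 3.92-fold for Rrp9 (adjusted p = 0.000141) and 3.79-fold for Tbl3 (adjusted p = 6.57e-05). Pwp2, another subunit of UTP-B, rose by log2 1.79 (SE 0.20) and Utp18, also of UTP-B, by 1.22 (SE 0.22).

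Other processome members gave smaller rises than Noc4l, Rrp9 and Tbl3. Heatr1 and Wdr43, subunits of UTP-A, which joins the nascent transcript first, rose by log2 1.31 (SE 0.13) and 1.64 (SE 0.18) in WT at 3 h. Wdr75 and Nol11, of the same complex, gave 1.47 and 1.21, and Nop14, the partner of Noc4l, gave 1.42. Utp20, a large scaffold protein, gave 1.24 and Utp14a, which activates a processome helicase, gave 1.06. Nol10 was the dimmest member, at 4.08 and 4.28 in unstimulated WT cells and 5.26 and 5.32 at 3 h, a rise of at least 2.06-fold (adjusted p = 0.000424). Nol10 on the IkL/L arrays read 4.28 and 4.64, 5.93 and 5.86, and 5.13 and 5.05. Nol10 was higher at 3 h than at any other time in both genotypes, with no overlap.

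Imp3 and Imp4 belong to the Mpp10 complex, which binds U3, and they did not move alike. Imp4 read 7.28 and 6.93, 8.68 and 8.38, and 8.68 and 8.67 in WT, and 7.67 and 7.78, 8.75 and 8.93, and 8.77 and 8.92 in IkL/L. The 3 h and 12 h values of Imp4 overlapped in both genotypes, and it was the 1 member in WT with a higher mean at 12 h than at 3 h (log2 difference 0.14, SE 0.15). Imp3 read 7.89 and 7.94 in unstimulated WT cells, 8.65 and 8.77 at 3 h and 8.44 and 8.71 at 12 h. Imp3 on the IkL/L arrays read 8.28 and 8.80, 8.54 and 9.08, and 8.54 and 9.04, with the unstimulated and stimulated values overlapping. Imp3 passed the test in WT at 3 h (log2 0.80, SE 0.23, adjusted p = 0.0368) and in no other comparison with unstimulated cells.

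Nol6, an RNA-binding processome protein, was the 1 member that passed no test with stimulation. Its signals were 5.21 and 5.13, 5.21 and 5.51, and 5.34 and 5.19 in WT and 5.53 and 4.69, 4.83 and 4.96, and 5.47 and 5.28 in IkL/L. These values followed no order by condition. The log2 differences were 0.19 in WT and -0.22 in IkL/L at 3 h, each with SE 0.23. A dimmer probe set of Nol6, with a mean of 4.91 against 5.20 for the probe set used, gave a log2 difference of 0.67 in WT at 3 h and passed the test over all probe sets (adjusted p = 0.0314). The 2 probe sets of Nol6 thus gave different calls.

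Late small-subunit factors all rose, 5 of 5 at both times in both genotypes. With arrays left out, 4 or 5 rose at 3 h and 2 to 5 at 12 h in each genotype. Bysl (bystin) acts in 40S maturation. Bysl read 6.57 and 6.54 in unstimulated WT cells, 8.88 and 8.81 at 3 h and 8.36 and 8.44 at 12 h, and 6.97 and 7.42, 9.02 and 9.11, and 8.53 and 8.69 in IkL/L cells. The WT replicates of Bysl differed by less than 0.1 in every condition, and the 3 conditions did not overlap in either genotype. Bysl rose 4.88-fold in WT at 3 h (log2 2.29, SE 0.15, adjusted p = 1.02e-05) and 3.58-fold at 12 h (adjusted p = 3.16e-05).

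Rrp12 takes part in the export of pre-40S particles. In WT it read 6.39 and 6.23, 8.55 and 8.56, and 7.83 and 8.04, and in IkL/L 6.35 and 7.25, 8.78 and 9.02, and 7.94 and 8.22. The unstimulated IkL/L replicate 2 stood above the 3 other unstimulated arrays and below all stimulated ones. Rrp12 rose 4.73-fold in WT at 3 h and 4.29-fold in IkL/L. Ltv1, a pre-40S export factor that is removed before the last steps, read 7.52 and 7.18, 9.22 and 8.64, and 8.45 and 7.93 in WT and 7.60 and 7.98, 8.94 and 9.24, and 8.57 and 8.65 in IkL/L. Ltv1 was higher on replicate 1 in all 3 WT conditions and on replicate 2 in all 3 IkL/L conditions. Its call at 12 h was lost under 9 of 25 alternatives in WT and 10 of 25 in IkL/L, including median centring of the arrays in both (adjusted p = 0.0515 and 0.0532).

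Tsr1 resembles a translational GTPase and is part of late pre-40S particles. It had the smallest change of this group: 10.36 and 10.36, 11.36 and 11.67, and 11.12 and 10.92 in WT and 10.54 and 10.54, 11.62 and 11.74, and 11.15 and 11.06 in IkL/L. The conditions did not overlap in either genotype, and the rise at 3 h was 2.22-fold in WT (adjusted p = 0.000165) and 2.2-fold in IkL/L (adjusted p = 0.000187). Nob1, the nuclease that makes the last cut of 18S rRNA, rose by log2 1.22 (SE 0.22) in WT and 1.21 (SE 0.22) in IkL/L.

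All 12 measured large-subunit factors rose at 3 h and at 12 h in both genotypes. With arrays left out, at least 10 rose at 3 h, and 5 to 12 in WT and 4 to 12 in IkL/L at 12 h. Their WT log2 differences ran from 1.02 to 2.38 at 3 h and from 0.57 to 1.78 at 12 h. Nop16 is a nucleolar protein of the pre-60S particle. Nop16 read 6.18 and 6.08, 8.44 and 8.23, and 8.13 and 7.69 in WT, and 6.15 and 6.59, 8.45 and 8.81, and 8.39 and 8.43 in IkL/L. Stimulated and unstimulated arrays of Nop16 were far apart in both genotypes, and its rise was the largest of all members in IkL/L at 3 h (4.8-fold, log2 2.26, SE 0.20) and at 12 h (4.11-fold, log2 2.04, SE 0.20).

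Rrp1b, a nucleolar protein that recruits the PP1 phosphatase, had the largest rise of all members in WT at 3 h. Its WT signals were 6.89 and 7.00, 9.61 and 9.04, and 8.08 and 8.44, and its IkL/L signals 7.28 and 7.39, 9.62 and 9.37, and 8.10 and 8.13. The 3 conditions were separate in each genotype. Rrp1b rose 5.2-fold in WT at 3 h (log2 2.38, SE 0.19, adjusted p = 2.97e-05), 2.48-fold in WT at 12 h and 1.72-fold in IkL/L at 12 h.

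Wdr12, Pes1 and Bop1 form the PeBoW complex, which is needed for processing of the large-subunit rRNAs, and their sizes of response differed. Wdr12 read 6.43 and 6.55, 8.49 and 8.23, and 8.14 and 7.99 in WT and 6.79 and 7.10, 8.64 and 8.67, and 8.47 and 8.51 in IkL/L. Wdr12 rose 3.66-fold in WT at 3 h and 2.98-fold at 12 h, with both stimulated groups well above the unstimulated one. Bop1 rose by log2 1.38 (SE 0.14) and Pes1 by 1.05 (SE 0.20) at 3 h, and both were under 1 at 12 h (0.57 and 0.79). The differences between these 3 genes were not tested.

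Rrs1, which brings the 5S ribonucleoprotein into the particle, had the smallest change among the large-subunit genes. It read 9.21 and 8.98, 10.12 and 10.11, and 10.14 and 9.67 in WT and 9.59 and 9.39, 10.39 and 10.41, and 10.09 and 10.09 in IkL/L. Its 3 h and 12 h values overlapped in WT, and its rise at 3 h was 2.03-fold (adjusted p = 0.0011). Ebna1bp2 (Ebp2), an early pre-60S factor, read 8.96 and 8.90, 10.83 and 10.67, and 10.35 and 9.91 in WT. Ebna1bp2 on the IkL/L arrays read 9.35 and 9.78, 10.97 and 11.34, and 10.48 and 10.67, each pair above its WT counterpart. Nip7, Nop2 (an rRNA cytosine methyltransferase), Noc2l, Noc3l and Brix1 rose in WT at 3 h by log2 1.72, 1.82, 1.41, 1.86 and 1.06.

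Of the 4 nucleolar proteins, Gnl3 and Mybbp1a rose in all 4 comparisons. Gnl3 (nucleostemin), a GTP-binding protein of proliferating cells, read 9.67 and 9.58, 11.48 and 11.47, and 10.85 and 10.89 in WT and 9.98 and 10.39, 11.51 and 11.75, and 10.83 and 10.84 in IkL/L. The 3 conditions were well separated, and the rise was 3.6-fold in WT at 3 h (log2 1.85, SE 0.15, adjusted p = 2.68e-05). Mybbp1a, which binds Myb and RNA polymerase I, read 9.08 and 9.19, 10.45 and 10.25, and 9.98 and 10.27 in WT and 9.37 and 9.42, 10.62 and 10.46, and 10.06 and 10.17 in IkL/L. Its 3 h and 12 h values overlapped in WT and did not in IkL/L.

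Ncl (nucleolin) and Npm1 (nucleophosmin), 2 of the most abundant nucleolar proteins, had the smallest rises of the 4 in WT at 3 h. Ncl read 11.41 and 11.32, 12.47 and 12.35, and 12.04 and 11.56 in WT and 11.76 and 11.74, 12.52 and 12.51, and 12.31 and 12.17 in IkL/L. Ncl rose at 3 h, 2.06-fold in WT (adjusted p = 0.000785) and 1.7-fold in IkL/L (adjusted p = 0.00484). At 12 h all its stimulated arrays were above the unstimulated ones, with adjusted p of 0.0788 in WT and 0.0534 in IkL/L. Npm1 read 11.60 and 11.40, 12.34 and 12.07, and 12.29 and 11.69 in WT and 11.93 and 11.62, 12.41 and 12.31, and 12.39 and 12.25 in IkL/L. Npm1 passed the test in WT at 3 h (1.63-fold, adjusted p = 0.0299) and missed it in IkL/L at 3 h (1.5-fold, adjusted p = 0.0656) and at 12 h in both genotypes. The WT call of Npm1 was lost under 7 of 25 alternatives, all of them leaving arrays out (adjusted p from 0.0664 to 0.196).

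**Figure D2:**
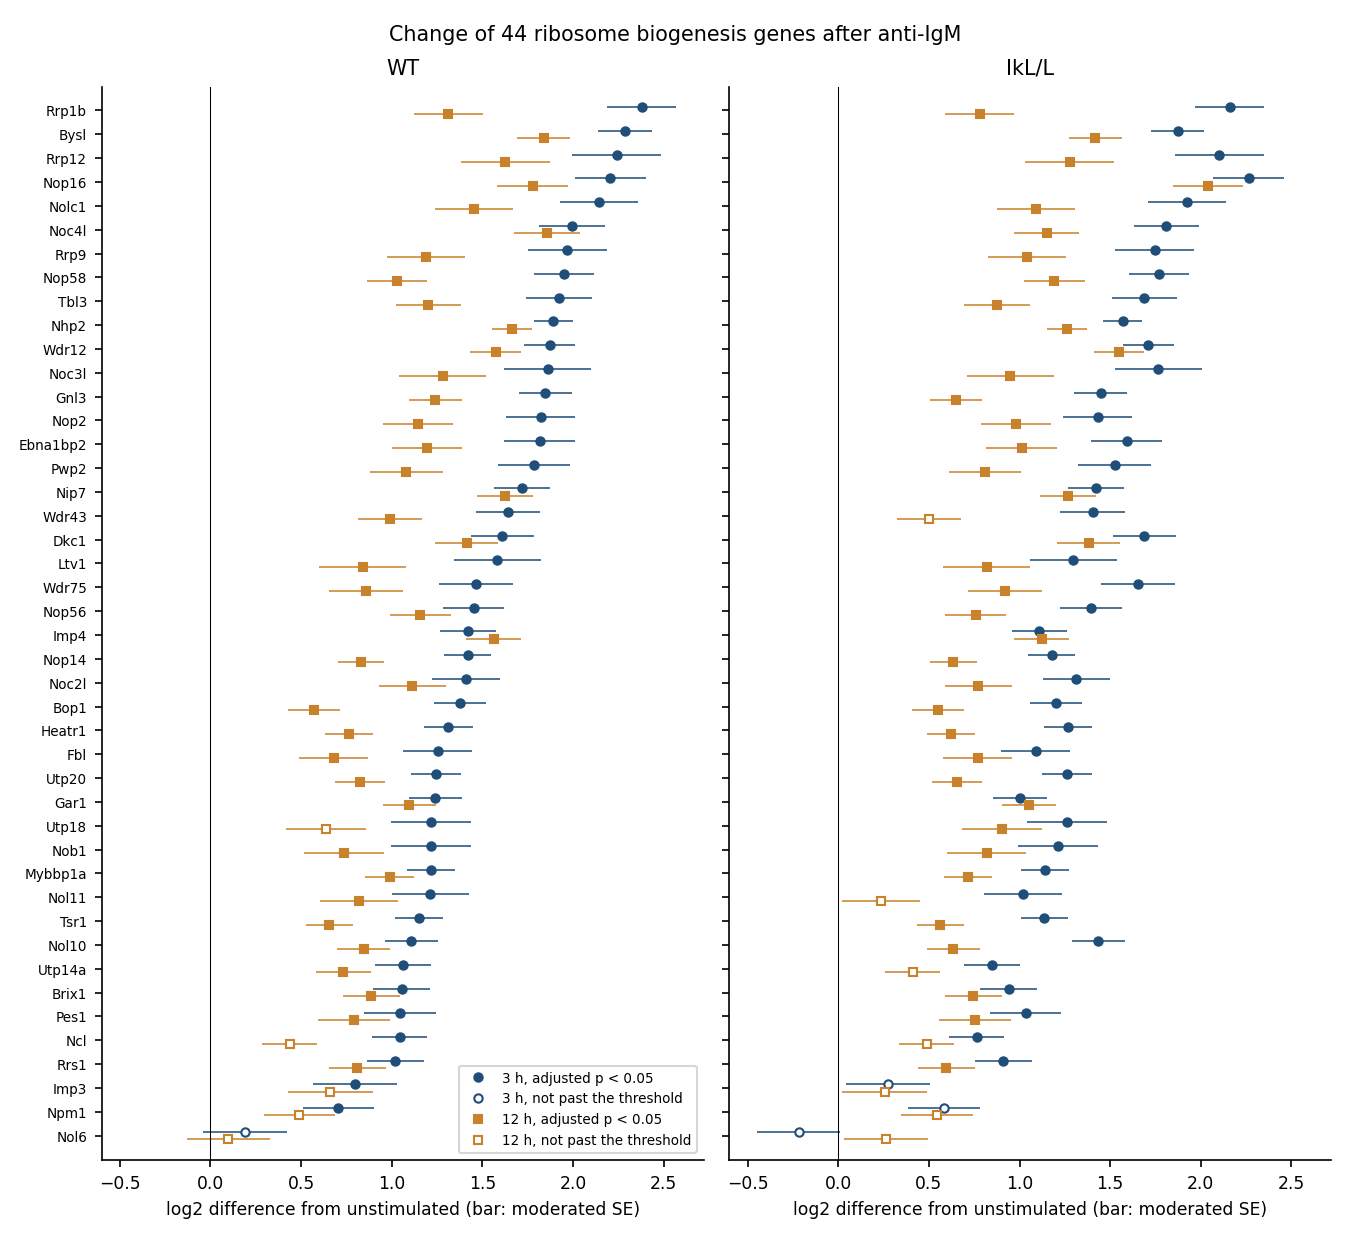
Log2 difference from unstimulated cells with its moderated SE (x axis) for 44 genes (y axis, ordered by the WT value at 3 h), in WT (left) and IkL/L (right); blue circles are 3 h, orange squares 12 h, and filled symbols passed an adjusted p of 0.05. The 3 h values of most genes lie to the right of the 12 h values, with Imp4 and Gar1 among those where they meet.

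Together, 36 of 44 members passed the test in all 4 comparisons with unstimulated cells. At most 9.15% of all genes can have risen in all 4, since that share rose in WT at 3 h. Among the members, Nol6 missed the test in all 4, and Imp3 and Npm1 in 3. Ncl missed it at 12 h in both genotypes, Utp18 in WT at 12 h, and Nol11, Wdr43 and Utp14a in IkL/L at 12 h. The 12 h counts moved with the arrays used. The WT count at 12 h was 15 without WT replicate 1 in all conditions and 21 without replicate 2, with medians of 1.00 and 0.95. The IkL/L count at 12 h was 19 without unstimulated IkL/L replicate 1, 17 without 12 h replicate 2, 13 with all 3 IkL/L replicate 1 arrays left out and 21 with the replicate 2 arrays left out, with medians between 0.66 and 0.91. Without unstimulated IkL/L replicate 2, 41 members rose in IkL/L at 3 h, with a median of 1.53, and Nol6 fell.

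Between 3 h and 12 h the rise was partly lost. The mean signal was higher at 3 h than at 12 h for 43 of 44 members in WT and 41 of 44 in IkL/L, and the median log2 difference, 12 h minus 3 h, was -0.46 in WT and -0.51 in IkL/L (all genes 0.02 and 0.05). In WT 11 members fell, where 4.33% of all genes fell, and in IkL/L 19 fell, where 6.42% of all genes did. No member rose. With a replicate block within genotype, 23 members fell in WT, where 7.32% of all genes fell, and 25 in IkL/L, where 9.33% did. Without the block, the fall passed the test in both genotypes for 9 members. At most 4.33% of all genes can have fallen in both, since that share fell in WT.

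Rrp1b fell most, by 1.07 on the log2 scale in WT (SE 0.19, adjusted p = 0.00588) and by 1.38 in IkL/L (SE 0.19, adjusted p = 0.001). Nop58 fell by 0.92 in WT (adjusted p = 0.00601) and by 0.57 in IkL/L (adjusted p = 0.0417), and Bop1 fell by 0.81 and 0.65. The others that fell in both genotypes were Tbl3, Wdr43, Gnl3, Nop14, Heatr1 and Tsr1. Rrp9 and Ncl passed in WT alone, while Noc4l, Nol11, Nol10, Nop56, Utp20, Wdr75, Pwp2, Noc3l, Rrp12 and Nolc1 passed in IkL/L alone. Whether the genotypes differ in the step from 3 h to 12 h was not tested.

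Other members had 12 h means close to their 3 h means. In WT, Imp4, Nol6, Nip7, Noc4l, Imp3 and Gar1 had 12 h minus 3 h differences between -0.14 and 0.14 on the log2 scale. Gar1 gave 0.05, Imp4 0.01, Imp3 -0.02 and Npm1 -0.04 in IkL/L, each with SE between 0.15 and 0.23. Noc4l gave -0.14 (SE 0.18) in WT and fell in IkL/L (-0.66, SE 0.18, adjusted p = 0.0331).

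The counts for 12 h against 3 h depended on single arrays. In WT the count was 3 without 3 h replicate 1, 6 without 3 h replicate 2, 3 without 12 h replicate 2 and 1 without either replicate in all conditions. In IkL/L it was 7 and 4 without 3 h replicate 1 or 2, 5 and 10 without 12 h replicate 1 or 2, 4 and 6 with all 3 IkL/L arrays of replicate 1 or 2 left out, and 10 with either WT set left out. Both 12 h arrays were below both 3 h arrays for 33 members in WT (20.9% of all genes) and 39 in IkL/L (21.8% of all genes).

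**Figure D3:**
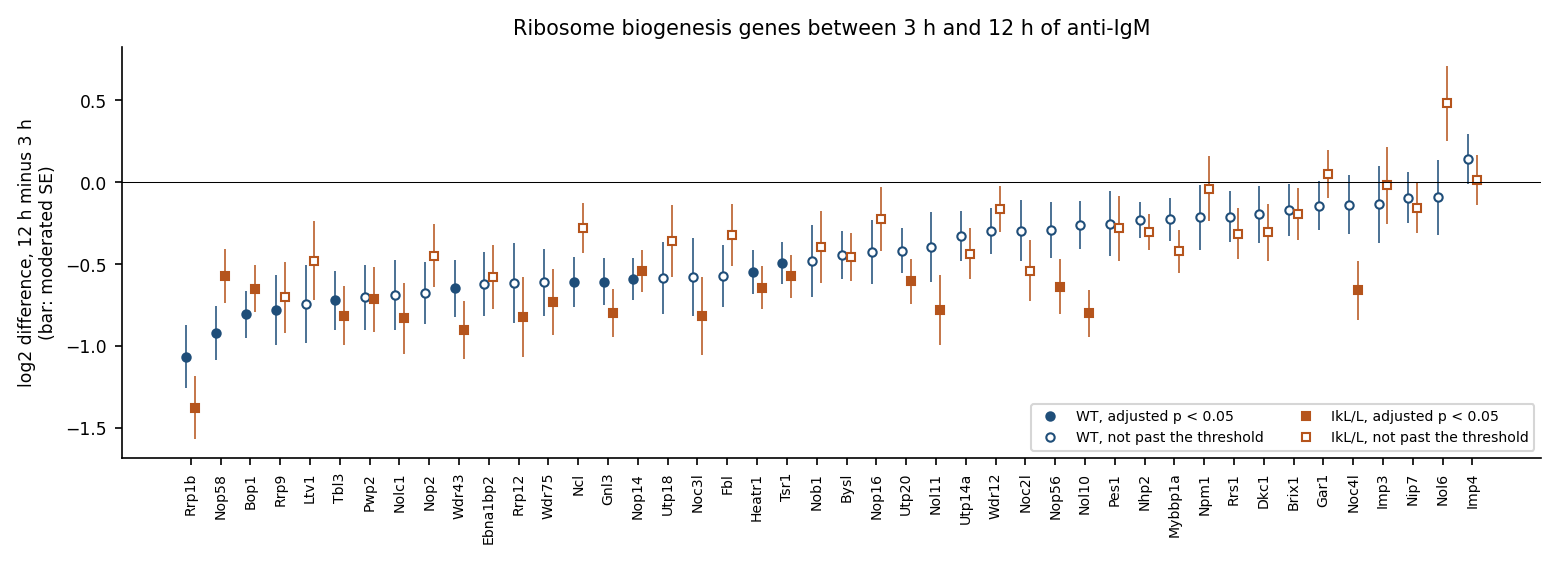
Log2 difference of 12 h minus 3 h of anti-IgM with its moderated SE (y axis) for 44 genes (x axis, ordered by the WT value), in WT (blue circles) and IkL/L (orange squares); filled symbols passed an adjusted p of 0.05. Most genes lie below 0 in both genotypes, with Rrp1b lowest, and Imp4 is the 1 gene above 0 in WT.

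No member separated the genotypes within a condition at the threshold, while nearly all of them had a higher mean in IkL/L before stimulation. In unstimulated cells the members' median log2 difference, IkL/L minus WT, was 0.39 (all genes 0.02), and 43 of 44 were above 0. No member passed the test, where 1.13% of all genes did. The lowest adjusted p was 0.0793, for Nhp2. Both IkL/L arrays were above both WT arrays for 31 members, against 22.2% of all genes, and below them for none. The largest differences were in Noc3l (log2 0.67, SE 0.24), Bysl (0.64, SE 0.15) and Ebna1bp2 (0.63, SE 0.19).

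After stimulation the median difference was smaller. It was 0.18 at 3 h, with 41 of 44 above 0, and 0.15 at 12 h, with 34 of 44 above 0. No member passed the test at 3 h (1.70% of all genes) or at 12 h (0.616% of all genes). The arrays did not overlap, with IkL/L higher, for 24 members at 3 h (20.0% of all genes) and 17 at 12 h (19.6% of all genes). The reverse held for 3 members at 3 h (25.0% of all genes) and 1 at 12 h (18.5% of all genes).

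Averaged over the 3 conditions, 5 members were higher in IkL/L, where 6.08% of all genes changed in either direction, and the median over the 44 was 0.25 (all genes -0.01). They were Nop58 (log2 0.47, SE 0.10, adjusted p = 0.0179), Wdr12 (0.39, SE 0.08, adjusted p = 0.0189), Ebna1bp2 (0.49, SE 0.11, adjusted p = 0.0309), Bysl (0.36, SE 0.08, adjusted p = 0.035) and Imp4 (0.37, SE 0.09, adjusted p = 0.0384). With a random replicate block within genotype, 1 of the 5, Wdr12, passed (3.82% of all genes). With a replicate block shared by both genotypes 15 members passed (9.69% of all genes). Taking the mean of a gene's probe sets, Wdr12 missed the threshold (log2 0.19, adjusted p = 0.118). So did Imp4 (0.21, adjusted p = 0.244) and Bysl (0.38, adjusted p = 0.0908), while Nop58 and Ebna1bp2 passed. Across genotypes, arrays of the same number and condition deviated together with correlations of 0.154, 0.168 and 0.291, and the labels do not say whether the numbers pair them. A count of 5 in 44 is a share of the same order as the background, and it moved with the arrays used. It was 0 without WT 3 h replicate 2, IkL/L 3 h replicate 2 or IkL/L 12 h replicate 2, and 0 without replicate 2 of either genotype in all conditions. It was 1 without WT unstimulated replicate 1 or WT 12 h replicate 2, and 2 without WT unstimulated replicate 2 or IkL/L unstimulated replicate 2. It was 9 without IkL/L unstimulated replicate 1, 8 without IkL/L 12 h replicate 1 and 12 with the 3 IkL/L replicate 1 arrays left out.

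The unstimulated difference leaned on IkL/L replicate 2. Its median was 0.22 without that array, with 37 of 44 above 0, and 0.52 without unstimulated IkL/L replicate 1. On that array Myc read 9.66, beside 8.82 on replicate 1 and 8.70 and 8.50 in WT. Jchain, a plasma cell gene, read 8.68 there, beside 5.64 on replicate 1 and 5.07 and 7.00 in WT, and S100a8 read 6.80 beside 5.10, 3.80 and 5.59. Of the other plasma cell markers, Sdc1 read 3.13 there, beside 3.43 on replicate 1 and 6.22 and 6.61 in WT. Prdm1 read 3.40 beside 3.36, 3.53 and 3.44, and Irf4 read 10.72 beside 9.95, 10.12 and 9.97. Of the other myeloid markers, S100a9 read 6.47 there, beside 3.73, 2.95 and 4.72. The remaining 4 were under the floor on every unstimulated array. Cd9, a marginal zone marker, read 7.81 and 7.69 on the IkL/L arrays and 5.56 and 5.84 on the WT arrays. The other 2 marginal zone markers, Cr2 and Cd1d1, gave log2 differences of -0.09 and -0.06 between the genotypes and were not called. The part of these transcripts in the difference was not tested. Without the 3 WT replicate 1 arrays, which were high in Xist, the median differences were 0.39, 0.28 and 0.18 in the 3 conditions.

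The rise itself was numerically smaller in IkL/L, in 38 of 44 members at 3 h and 35 of 44 at 12 h. The median difference between the genotypes' responses was -0.18 at 3 h and -0.19 at 12 h on the log2 scale. No member passed the interaction test at either time, where 0.0385% and 0.0220% of all genes did. The lowest adjusted p was 0.903 at 3 h and 0.697 at 12 h. Noc4l (-0.71, SE 0.26) and Gnl3 (-0.59, SE 0.21) differed most at 12 h. Without unstimulated IkL/L replicate 2 the medians were -0.01 and -0.03, with 20 and 21 of 44 members above 0. That fit still held replicate 2 of the stimulated IkL/L groups. The members' mean was higher on replicate 2 in all 3 IkL/L conditions (replicate 1 minus replicate 2: -0.30, -0.14 and -0.12). Leaving out that array alone thus cannot show whether the smaller rise rests on it. Over all fits leaving arrays out, the median difference ran from -0.35 to -0.01 at 3 h and from -0.35 to -0.03 at 12 h. Across the 44 genes the WT and IkL/L log2 rises had r = 0.939 at 3 h and 0.818 at 12 h, beside 0.893 and 0.858 across all genes. Each rise uses arrays of its own genotype.

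**Figure D4:**
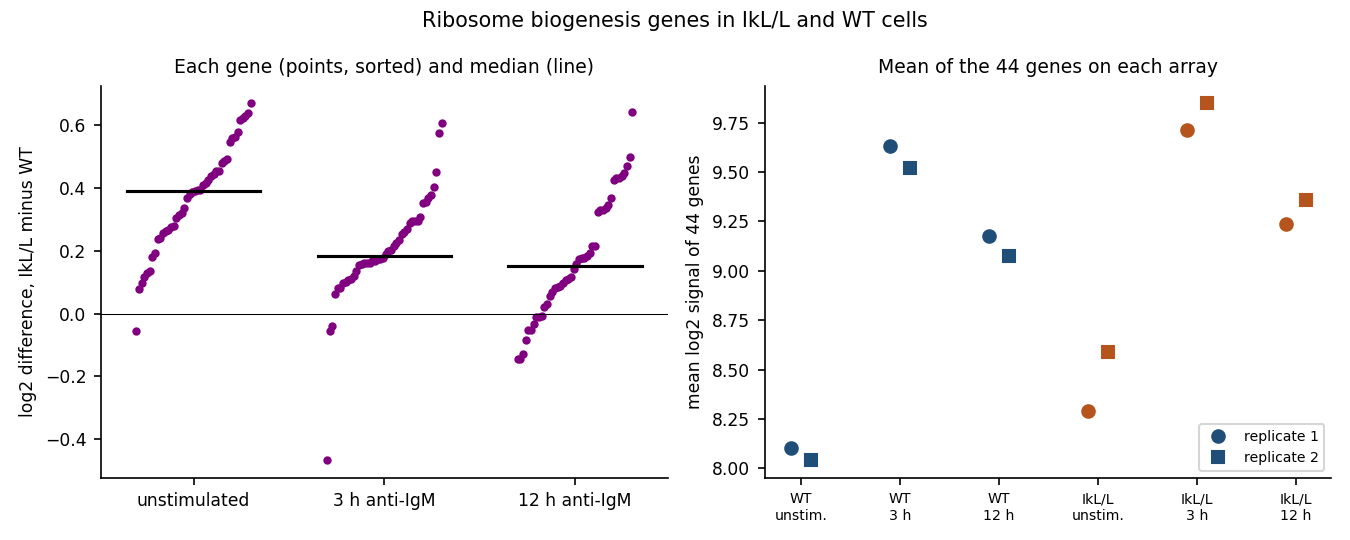
Left, log2 difference of IkL/L minus WT (y axis) for each of 44 genes (points, sorted within a condition) with the median (black line), in unstimulated cells and at 3 h and 12 h of anti-IgM (x axis). Right, mean log2 signal of the 44 genes (y axis) on each of the 12 arrays (x axis, circles replicate 1, squares replicate 2, blue WT, orange IkL/L). The median is 0.39 before and 0.18 and 0.15 after stimulation, and unstimulated IkL/L replicate 2 lies above replicate 1.

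Probe sets of the same genes mostly gave the same call at 3 h. Of 46 other probe sets of 31 members, 37 rose in WT at 3 h and none fell. Of the 9 that were not called, 8 had a mean under the signal floor. In 23 of the 31 genes all probe sets rose. At 12 h, of the 37 other probe sets with a mean at or above the floor, 18 rose in WT and 21 in IkL/L, against 27 and 25 of the 31 probe sets used for these genes. Their median log2 difference at 12 h was 0.79 in WT and 0.84 in IkL/L, and that of the probe sets used 0.99 and 0.77. Other probe sets of Bop1, Pes1 and Heatr1 gave 0.06, 0.02 and 0.21 in WT at 12 h, and one of Imp4 gave -0.47, and none of these 4 was called. The 12 h calls of these genes thus depended on the probe set. Tbl3 has 2 further probe sets at means of 2.47 and 2.41, both under the signal floor, while the probe set used had a mean of 8.16. Probe sets that dim cannot show whether the calls of Tbl3 depend on the probe set.

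The rest of the pathway was read from lists not picked for how they moved, although chosen with earlier results known. Of 80 further assembly factors, 65 rose in WT at 3 h and 44 at 12 h, and 63 and 35 rose in IkL/L. None fell in WT and 1 fell in IkL/L at each time. The list's median log2 difference in WT was 1.14 at 3 h and 0.71 at 12 h. Its largest rises in WT at 3 h were in Ppan (4.55-fold, log2 2.19, SE 0.18), a pre-60S factor, Pno1 (3.88-fold), a partner of Nob1, Rrp15 (3.88-fold) and Rbm19 (3.53-fold).

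RNA polymerase I genes rose as well, 9 of 12 in WT at 3 h and 7 at 12 h, and 8 and 4 in IkL/L, with none falling. Polr1b, the second-largest subunit, rose 4.33-fold in WT at 3 h (log2 2.11, SE 0.31, adjusted p = 0.000762), Polr1a 2.84-fold and Polr1e 2.71-fold. Taf1c, of the promoter selectivity factor, missed the test (log2 1.17, SE 0.42, adjusted p = 0.0894). Another list holds the RNA exosome, which trims rRNA ends, its cofactors and the nuclease Xrn2. Of its 14 genes 9 rose in WT at 3 h and 11 at 12 h, and 10 and 12 in IkL/L, with median log2 differences of 0.67 and 0.83 in WT. Between 3 h and 12 h the list's median in WT was -0.01, with 1 gene falling and none rising. Dis3 (log2 1.71), Exosc1 (1.25), Exosc2 (1.13) and Exosc10 (0.97) rose most in WT at 3 h.

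Ribosomal protein genes, the parts that the members assemble, rose at shares no higher than those of all genes. Genes without a probe set of a single symbol are not in the list, and Rpl3l, Rpl39l, Rps4l and Rps27l are. Of 43 measured, 3 rose in WT at 3 h (9.15% of all genes) and 4 at 12 h (10.1% of all genes), and none fell. In IkL/L 3 rose at 3 h (9.82% of all genes) and 2 at 12 h (9.72% of all genes), and 2 fell at each time. The share of all genes that fell is not given here, so the falls have no background beside them. The WT medians were -0.02 at 3 h and 0.08 at 12 h, the IkL/L medians -0.07 and 0.00, close to those of all genes. Named after their values were seen, Rps27l, Rps25 and Rpl12 rose in WT at 3 h (log2 1.14, 0.98 and 0.97), and Rps27l, Rpl14, Rps25 and Rps6 at 12 h. Rpl37a fell in IkL/L at both times, Rps19 at 3 h and Rps15 at 12 h.

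Myc, which the literature places upstream of many members, read 8.70 and 8.50 in unstimulated WT cells, 11.61 and 11.16 at 3 h and 9.96 and 9.69 at 12 h. Myc on the IkL/L arrays read 8.82 and 9.66, 11.31 and 11.49, and 9.76 and 9.92. Myc was highest at 3 h and lower at 12 h in both genotypes, as the members' medians were. Against unstimulated cells, Myc at 12 h was called in WT (log2 1.23) and was not called in IkL/L (log2 0.60). It rose 6.91-fold in WT at 3 h (log2 2.79, SE 0.25, adjusted p = 5.4e-05) and 4.45-fold in IkL/L (log2 2.15, SE 0.25, adjusted p = 0.000206). Mxd4, a Max partner that opposes Myc, read 7.84 and 8.59, 5.54 and 5.56, and 6.71 and 7.82 in WT, and fell 6.34-fold at 3 h (adjusted p = 0.00173). In IkL/L Mxd4 read 7.48 and 8.07, 4.22 and 4.09, and 6.58 and 5.33, and fell at least 11.8-fold at 3 h (adjusted p = 0.000264). Averaged over the 3 conditions, Mxd4 was lower in IkL/L than in WT (log2 -1.05), where 6.08% of all genes changed in either direction. None of these 4 regulators was called between genotypes within a condition. Max itself stood between 4.95 and 5.61 and Mycn between 4.03 and 4.55 on all 12 arrays, and neither was called at 3 h in WT.

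Since the members moved together, their promoters were searched for the letters of the Myc-Max E-box and of 3 other factors. RefSeq windows of 250 bases before to 50 after a gene's start (GRCm38.p6) matched 37 of the 44 measured members. CACGTG, the E-box, which reads the same on both strands, was found in 10 of 37 members (27.0%) and in 10.3% of 14368 array genes with a window. CCGGAA, the core of ETS-family sites, was found on either strand in 18 members (48.6%) and in 24.1% of genes. TGGGAA, which holds the Ikaros core, was in 10 members (27.0%) and 27.5% of genes, and GCGCATGC, of NRF1 sites, in 1 member (2.70%) and 4.70% of genes. With the 200 bases nearest the start, the E-box was in 27.0% of members and in 1149 of the 14368 genes, and CCGGAA in 45.9% of members and 20.3% of genes.

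The 10 members with CACGTG were Imp4, Ltv1, Mybbp1a, Nol11, Nop2, Pes1, Tsr1, Utp18, Utp20 and Wdr43. Their first base lay between 121 bases before the start, in Imp4, and 41 bases after it, in Mybbp1a. Members with the E-box did not rise more: their median WT log2 rise at 3 h was 1.23 (range 1.05 to 1.82), against 1.72 (range 0.80 to 2.38) for the 27 without. Over all genes the medians were 0.05 and 0.02. These shares and medians are descriptions without a test, and letters in a window are not a bound site.

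The 130 bases before the start are printed for the 4 members with CACGTG upstream of a single start and for the 4 with the largest WT rise at 3 h among single-window members without it, to set the groups side by side. They run 5′ to 3′ on the gene's strand, and capitals mark CACGTG, and CCGGAA on either strand (as TTCCGG where it lies on the opposite one). The first 4 hold the E-box:
Imp4, chr1:34439699-34439828, plus strand: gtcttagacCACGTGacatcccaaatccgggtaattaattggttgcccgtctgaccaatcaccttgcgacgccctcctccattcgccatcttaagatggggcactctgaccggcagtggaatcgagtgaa
Nol11, chr11:107189382-107189511, minus strand: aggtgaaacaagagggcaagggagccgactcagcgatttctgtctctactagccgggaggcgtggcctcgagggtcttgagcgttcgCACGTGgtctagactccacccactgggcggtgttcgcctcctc
Nop2, chr6:125131753-125131882, plus strand: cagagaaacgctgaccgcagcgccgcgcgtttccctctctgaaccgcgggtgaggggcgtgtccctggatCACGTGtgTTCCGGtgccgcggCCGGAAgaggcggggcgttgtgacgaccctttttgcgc
Utp18, chr11:93885767-93885896, minus strand: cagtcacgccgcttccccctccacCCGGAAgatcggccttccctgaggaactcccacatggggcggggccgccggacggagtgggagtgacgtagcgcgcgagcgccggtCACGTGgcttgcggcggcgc
The other 4 hold no E-box in their window, and rose by log2 2.29, 2.21, 2.14 and 2.00 in WT at 3 h, in the order shown:
Bysl, chr17:47611493-47611622, minus strand: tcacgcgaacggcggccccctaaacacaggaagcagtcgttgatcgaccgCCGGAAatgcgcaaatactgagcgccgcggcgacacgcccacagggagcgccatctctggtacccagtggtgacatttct
Nop16, chr13:54590075-54590204, minus strand: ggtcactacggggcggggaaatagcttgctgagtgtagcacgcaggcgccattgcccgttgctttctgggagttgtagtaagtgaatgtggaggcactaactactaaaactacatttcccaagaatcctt
Nolc1, chr19:46075717-46075846, plus strand: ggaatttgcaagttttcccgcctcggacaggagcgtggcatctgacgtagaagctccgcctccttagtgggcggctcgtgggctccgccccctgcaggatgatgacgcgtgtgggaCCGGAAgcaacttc
Noc4l, chr5:110653383-110653512, minus strand: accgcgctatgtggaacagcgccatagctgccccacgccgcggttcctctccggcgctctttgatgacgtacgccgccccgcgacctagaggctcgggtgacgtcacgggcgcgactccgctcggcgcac
Nop2 carries its E-box 60 bases before the start with CCGGAA letters 52 and 38 bases before it, the only one of the 8 with CCGGAA on each strand. In Utp18 the E-box starts 20 bases and CCGGAA 106 bases before the start. In the other group, Bysl has CCGGAA 80 bases and Nolc1 14 bases before the start, and Nop16 and Noc4l have neither run of letters in the stretch shown.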

How the data were processed

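Transcripts of 12 samples were measured on Affymetrix mouse 3' arrays. The authors deposited log2 signals; the submitters' processing notes name RMA, without a version. Of 45037 probe sets, 34945 had 1 symbol, 932 had several and the annotation table lacked 9160; those with 1 symbol gave 18193 genes, each read from its brightest probe set over all arrays. A model with a mean for each group was fitted to all 12 arrays (limma 3.58.1, R 4.3.3; lmFit and eBayes, 6 residual and 3.95 prior degrees of freedom), with 12 comparisons, Benjamini-Hochberg adjustment over all genes and a threshold of 0.05. The pipeline was tested on simulated data. Number of arrays limits the precision.

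Members and lists were chosen with earlier results of these data known. Values in every array are given, per role, for the 3 members with the largest and the 1 with the smallest mean absolute difference over the 4 comparisons with unstimulated cells, and for members called between genotypes; Imp3 and Nol10 were added after their values were seen. Other pathway lists name at most 4 genes, those with the largest changes in WT at 3 h; ribosomal protein genes are named where few were called, and markers where they bear on a result.

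Over the 6065 brightest genes, arrays of the same number deviated from their group means with correlations from 0.546 to 0.619 within WT and 0.354 to 0.49 within IkL/L, and from 0.026 to 0.31 across genotypes, so the numbers were taken to pair arrays within a genotype. A second model added a replicate block within genotype, as a random term (consensus correlation 0.166) where genotypes are compared. Other alternatives were a shared block, mean of probe sets, array weights, an intensity trend, removal of dim genes, a fit of the compared arrays alone, 2 rescalings and leaving arrays out. Leaving out 1 array leaves a single array in its group, assumed to vary like the others. Promoter windows are from RefSeq.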

Additional observations from a re-analysis of the deposited data

How the results depend on the processing

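The counts of members that rose at 3 h stayed within 1.5 times under every alternative run (41 and 43 are the values in IkL/L and WT), and no member count or named member called in the main comparisons changed direction. For 12 h against unstimulated, the WT count of 39 ran from 15 to 39 with arrays left out. The IkL/L count of 37 was 17 after scaling to housekeeping genes, 21 with only the arrays compared, and 13 to 39 with arrays left out. For 12 h against 3 h, the WT count of 11 was 23 with a replicate block within genotype, 18 with the mean of probe sets, 17 with housekeeping scaling, 3 with only the arrays compared, and 1 to 16 with arrays left out. The IkL/L count of 19 was 37 with housekeeping scaling and 4 to 23 with arrays left out. In unstimulated cells, the count of 0 between genotypes was 1 with a replicate block shared by both genotypes, 1 with housekeeping scaling and 0 to 2 with arrays left out; at 3 h it was 1 with the shared block. On average over conditions, the count of 5 was 1 with the replicate block within genotype, 15 with the shared block, 9 with an intensity trend, 11 with housekeeping scaling and 0 to 12 with arrays left out. The replicate block within genotype moved no other count by over 1.5 times. Housekeeping scaling moved the median of all genes too, to 0.16 in unstimulated IkL/L against WT, to -0.23 in IkL/L at 12 h against unstimulated and to -0.30 in IkL/L at 12 h against 3 h, and the members' medians moved with it. The 7 housekeeping genes themselves spanned log2 differences from -0.23 to 1.71 in IkL/L at 12 h, with a median of 0.08. The highest was Gusb, which read 5.97 and 6.09 without stimulus and 7.98 and 7.50 at 12 h. Apart from fewer arrays, the cause of these changes was not tested. Precision is limited by 2 arrays per group and, for Nol6 and Nol10, by signals near the floor.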
